A study of Homo sapiens with 6 samples.

Results

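Triglyceride synthesis and lipid droplet genes were followed in Ovcar8 cells, a line derived from high-grade serous ovarian cancer, after serum withdrawal. The 10 genes were chosen by name for their place in the pathway, with earlier results of these data known, out of 58735 genes in the deposited count table: GPAM, AGPAT2, LPIN1, LPIN2, DGAT1, DGAT2, PNPLA2, PNPLA3, PLIN2 and PLIN3. All 10 had enough reads to be among the 13772 genes tested. Bulk RNA sequencing covered 3 libraries of serum-starved cells, kept without fetal bovine serum (FBS) for 48 h, and 3 of control cells kept in 5% FBS for the same time. The labels name no allele or agent other than serum, and both groups come from the 1 cell line. The cells were grown in RPMI-1640 with FBS, and the labels do not say in which medium the serum-starved cells were kept beyond the absence of FBS. The labels do not say whether replicates were separate cultures, so each test measures the spread between these 6 libraries, which may be technical.

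Triglyceride is built on glycerol-3-phosphate in the endoplasmic reticulum. Acyltransferases of the GPAT and AGPAT families add fatty acyl chains to make phosphatidate, lipins remove its phosphate to give diacylglycerol, and the DGAT enzymes add the last acyl chain. The product is stored in lipid droplets coated by perilipins, and lipases such as the adipose triglyceride lipase ATGL, encoded by PNPLA2, release the fatty acids again.

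The libraries held 16379416 to 19558484 counts each, so that 3 counts corresponded to between 0.132 and 0.204 CPM (counts scaled to equal library size). Of the 9 epithelial and Müllerian markers, KRT8, KRT18, KRT7 and PAX8 were well detected, and MUC16 had no count. EPCAM reached at most 3.96 CPM, WT1 at most 2.69 CPM, CDH1 at most 0.749 CPM and KRT19 at most 0.22 CPM. The 6 adipocyte markers summed to 7.88 to 11.8 CPM in serum-starved cells and 8.06 to 12.0 CPM in FBS cells, mostly from LPL, with ADIPOQ, LEP and FABP4 at 0. The 6 hepatocyte markers summed to 1.23 to 3.07 CPM in serum-starved cells and 0.813 to 1.36 CPM in FBS cells, with ALB, FGB and TTR at 0. The 6 fibroblast markers summed to 762 to 832 CPM in serum-starved cells and 318 to 577 CPM in FBS cells, nearly all of it COL1A1, while COL1A2 and DCN had no count. The 6 macrophage and leukocyte markers summed to 0.439 to 1.97 CPM in serum-starved cells and 0.715 to 2.54 CPM in FBS cells.

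Some libraries stood apart in a way that followed base composition. Among the tenth of genes with the highest GC content, the median log2 deviation from each gene's own mean was 0.48, 0.10 and -0.47 in serum-starved libraries 1, 2 and 3, and -0.27, 0.17 and 0.07 in FBS libraries 1, 2 and 3. Among the tenth with the lowest GC content the median was -0.70, -0.28 and 0.29 in serum-starved libraries 1, 2 and 3. In FBS libraries 1, 2 and 3 it was 0.79, 0.01 and 0.06. Serum-starved library 3 also departed by -0.53 among the shortest genes and by 0.47 among the longest. The median GC content of the 10 genes was 55.9%, against 50.7% over all genes tested. The fold change of each of the 10 genes was therefore estimated from the counts as deposited and again after removing a per-library trend on GC content and length.

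Promoter sequence of 7 of the 10 genes was available from RefSeq (GRCh38.p14) in 10 windows running from 250 bases before to 50 bases after a transcription start. PNPLA3, DGAT1 and DGAT2 had no entry. The windows were searched on both strands for the sterol regulatory element letters TCACNCCAC, the E-box CACGTG and the NF-Y box CCAAT. The upstream parts of 2 windows are shown, since LPIN1 rose on serum withdrawal and PNPLA2, which has the single match to the sterol regulatory element, did not pass the test. Both are on the plus strand, written 5′ to 3′, and capitals mark the match on the reverse strand.
LPIN1, chr2:11677294-11677543: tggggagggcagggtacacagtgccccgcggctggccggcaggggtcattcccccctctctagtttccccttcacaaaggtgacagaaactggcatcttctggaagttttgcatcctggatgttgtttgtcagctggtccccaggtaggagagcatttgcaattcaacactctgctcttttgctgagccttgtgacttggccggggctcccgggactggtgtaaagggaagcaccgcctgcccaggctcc
PNPLA2, chr11:818664-818913: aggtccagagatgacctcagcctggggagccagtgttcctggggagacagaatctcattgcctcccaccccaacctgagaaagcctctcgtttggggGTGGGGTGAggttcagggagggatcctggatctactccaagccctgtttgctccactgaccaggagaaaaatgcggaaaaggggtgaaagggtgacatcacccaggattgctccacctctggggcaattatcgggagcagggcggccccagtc
The PNPLA2 match began at position -153 relative to the start, and such a match was present in 1.13% of 35116 human windows of the same length. None of the 3 LPIN1 windows held any of the motifs, nor did that of AGPAT2. One LPIN2 window held an E-box at -210 and the PLIN2 window held one at -69, against 7.26% of all windows. An NF-Y box was found in the windows of GPAM and PLIN3, against 34.6% of all windows. These are matches of letters and say nothing of whether a factor binds there.

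Expression per gene length spanned a wide range. Averaged over the 6 libraries, AGPAT2 had 149 FPKM (counts scaled by gene length and library size) and PLIN3 had 116, followed by PNPLA2 at 42.4, DGAT1 at 26.2 and PLIN2 at 8.70. The remaining genes were lower, with PNPLA3 at 4.53, DGAT2 at 2.09, LPIN1 at 1.97, LPIN2 at 1.5 and GPAM at 0.407 FPKM. The ranges of AGPAT2 and PLIN3 overlapped in both groups, as did those of LPIN1 and LPIN2. In serum-starved cells alone, the range of PNPLA2 also overlapped with that of DGAT1, and that of DGAT2 with LPIN1. Compared within libraries, AGPAT2 was above PLIN3 and PNPLA2 above DGAT1 in each of the 6 libraries, while the order of LPIN1 and LPIN2 differed between libraries. PNPLA3 was at 5.98 to 10.4 FPKM in serum-starved cells, within reach of PLIN2 at 8.51 to 9.65 FPKM. In FBS cells PNPLA3 was at 0.938 to 2.23 FPKM, overlapping DGAT2 at 2.05 to 2.29 FPKM and below PLIN2 at 7.87 to 8.96 FPKM.

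Of the 10 genes, 2 were higher in serum-starved cells at an adjusted p below 0.05 (edgeR quasi-likelihood test, adjusted over all genes tested), and 0 were lower. Over all genes tested, 33 were called higher, which is 0.24%, and 6 were called lower, which is 0.0436%. The 10 genes were chosen with earlier results of these data known, so these shares are background and not a test. The 2 genes, PNPLA3 and LPIN1, were also the ones whose groups did not overlap, where 10% of all genes tested were higher without overlap and 7.65% were lower without overlap. The fold change was above 0 on the log2 scale for 6 genes and below 0 for 4, with a median of 0.09 against -0.02 over all genes tested. In 7 of the 10 the estimate lay within 0.3 log2 units of 0. In bulk libraries such as these, a change in all cells and a change in a part of them cannot be told apart.

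**Figure D1:**
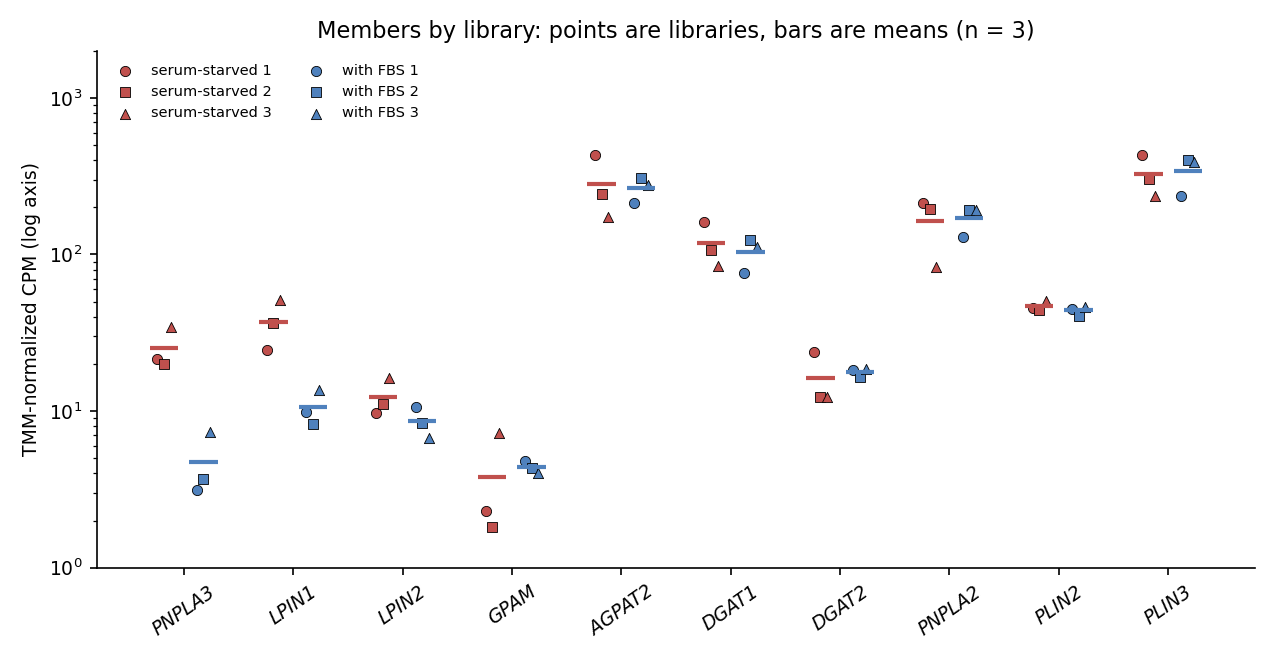
Normalized level of each of the 10 genes in every library, in CPM on a log axis, with serum-starved libraries in red to the left of FBS libraries in blue; symbols give the replicate number and bars the mean of 3. The groups separate for PNPLA3 (19.9 to 34.6 against 3.15 to 7.34 CPM) and LPIN1 (24.5 to 51.0 against 8.22 to 13.6 CPM) and overlap for the other 8 genes.

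The first committed step is carried out by glycerol-3-phosphate acyltransferases, of which GPAM encodes a mitochondrial GPAT. The gene (ENSG00000119927) lies on chromosome 10 from 112149864 to 112215377, minus strand, in GRCh38, the build of all positions given here. GPAM had 2.31, 1.81 and 7.27 CPM in serum-starved libraries 1, 2 and 3, and 4.83, 4.35 and 4.03 CPM in the FBS libraries. The serum-starved libraries thus lay on both sides of the FBS libraries, with library 3 the highest of all 6 and libraries 1 and 2 the lowest. The means were 3.80 ± 3.02 CPM in serum-starved and 4.4 ± 0.401 CPM in FBS cells (SD, n = 3 each), with a log2 fold change of -0.20 (SE 0.52, 95% interval -1.30 to 0.89, edgeR adjusted p = 0.928). Without serum-starved library 3 the log2 fold change was -1.10 (edgeR adjusted p = 0.266). GPAM was a low-count gene, with 34, 33 and 165 counts in serum-starved libraries and 95, 73 and 62 in FBS libraries, and the fitted trend for genes of its GC content of 43.0% and its length ran the same way, at -0.49, -0.20 and 0.57 log2 units in serum-starved libraries 1, 2 and 3. With the trend removed GPAM had 3.40 ± 1.41 CPM in serum-starved and 4.30 ± 0.454 CPM in FBS cells (SD, n = 3 each), and the log2 fold change was -0.32 (95% interval -1.16 to 0.52).

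GPAM contributed little to the family per gene length. GPAT4, an endoplasmic reticulum isoform, made up 98.7%, 96.0% and 94.6% of the summed FPKM of the 4 GPAT genes in serum-starved libraries, against 94.7%, 93.8% and 93.1% in FBS libraries. GPAM made up 1.10%, 0.944% and 3.77% in serum-starved libraries, against 3.37%, 2.87% and 2.68% in FBS libraries. GPAT4 itself had 155 ± 11 CPM in serum-starved and 113 ± 2.69 CPM in FBS cells (SD, n = 3 each), without overlap, but did not pass the test (log2 fold change 0.45, SE 0.27, edgeR adjusted p = 0.590).

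AGPAT2 encodes the acyltransferase that converts lysophosphatidate to phosphatidate, and its loss causes congenital generalized lipodystrophy in people (ENSG00000169692, chromosome 9 from 136673143 to 136687423, minus strand). It had 434, 242 and 173 CPM in serum-starved libraries, and 214, 306 and 280 CPM in FBS libraries. The serum-starved values enclosed the FBS values, with library 1 the highest and library 3 the lowest of all 6. The means were 283 ± 136 CPM in serum-starved and 266 ± 47.4 CPM in FBS cells (SD, n = 3 each), and the log2 fold change was 0.09 (SE 0.34, 95% interval -0.64 to 0.81, edgeR adjusted p = 0.955). AGPAT2 has a GC content of 65.8%, and after removal of the GC and length trend its values were 297, 223 and 283 CPM in serum-starved libraries, against 252, 263 and 267 CPM in FBS libraries. The log2 fold change was then 0.04, with an interval narrowed to -0.34 to 0.42. AGPAT2 held 74.6% to 84.3% of the summed FPKM of the 5 AGPAT genes in serum-starved libraries and 79.9% to 84.2% in FBS libraries.

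Lipins dephosphorylate phosphatidate to diacylglycerol, and in mice LPIN1 protein also acts in the nucleus on transcription of lipid genes. The LPIN1 gene (ENSG00000134324) lies on chromosome 2 from 11677595 to 11827409, plus strand. LPIN1 had 24.5, 36.4 and 51.0 CPM in serum-starved libraries, and 9.91, 8.22 and 13.6 CPM in FBS libraries. The lowest serum-starved library was above the highest FBS library, and FBS library 3 was the highest of its group. The means were 37.3 ± 13.3 CPM in serum-starved and 10.6 ± 2.78 CPM in FBS cells (SD, n = 3 each), from 360 to 1158 counts per library in serum-starved and 138 to 210 in FBS cells. LPIN1 rose 3.53-fold (95% interval 2.11 to 5.89, log2 fold change 1.82, SE 0.35, edgeR adjusted p = 0.0309) and ranked 31st of 13772 genes by p.

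The LPIN1 call depended on which libraries were included. Leaving out serum-starved library 2 gave an edgeR adjusted p of 0.154, and leaving out FBS library 1, 2 or 3 gave 0.436, 0.222 or 0.0836. Without serum-starved library 1 or 3 it was 0.00573 or 0.0122. The log2 fold change stayed between 1.52 and 2.07 in all 6 of these fits. The fitted trend for genes of the length and GC content of LPIN1, 11861 exon bases and 50.9%, was 0.09, 0.07 and 0.37 log2 units in the serum-starved libraries and -0.23, -0.17 and -0.12 in the FBS libraries. With that trend removed LPIN1 had 23.1, 34.8 and 39.4 CPM in serum-starved libraries and 11.6, 9.26 and 14.8 CPM in FBS libraries, still without overlap. Its log2 fold change was then 1.45 (SE 0.26, 95% interval 0.89 to 2.01, edgeR adjusted p = 0.0189).

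LPIN2 (ENSG00000101577, chromosome 18 from 2916994 to 3013315, minus strand) is the paralog mutated in Majeed syndrome. It had 9.65, 11.1 and 16.4 CPM in serum-starved libraries, and 10.7, 8.40 and 6.76 CPM in FBS libraries. The groups overlapped, with serum-starved library 1 below FBS library 1. The log2 fold change was 0.53 (SE 0.37, 95% interval -0.26 to 1.31, edgeR adjusted p = 0.675), and 0.35 with the GC and length trend removed (95% interval -0.25 to 0.94). Within libraries, the LPIN1 to LPIN2 ratio of counts per exon length was 1.45, 1.87 and 1.78 in serum-starved cells, against 0.532, 0.561 and 1.15 in FBS cells. LPIN1 was thus above LPIN2 in every serum-starved library and in FBS library 3. The ratio was 2.41-fold higher in serum-starved cells, at the smallest p that a two-sided exact permutation test of 3 against 3 allows (p = 0.1, adjusted p = 0.25 over 5 pairs). The difference of the log2 ratios was 1.27, and 1.07 with the GC and length trend removed.

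The third lipin, LPIN3, was the most abundant of the family per length in every library except FBS library 1, where LPIN2 was. This order and the shares below rest on division by gene length, which for LPIN1 is 11861 exon bases. Which transcripts were present was not tested. In CPM, without that division, LPIN1 was above LPIN3 in every library except FBS library 2. In serum-starved libraries LPIN1 had 24.5 to 51.0 CPM, against 15.5 to 19.7 CPM for LPIN3. The summed FPKM of the 3 lipins was 6.73, 7.88 and 10.7 in serum-starved libraries, against 3.79, 5.13 and 4.41 in FBS libraries. LPIN1 made up 30.0%, 37.9% and 39.0% of the sum in serum-starved libraries, against 21.2%, 13.3% and 25.5% in FBS libraries, and LPIN3 made up 49.3%, 41.8% and 39.2% in serum-starved libraries, against 39.0%, 63.0% and 52.4% in FBS libraries. The LPIN1 share did not overlap between groups, while the LPIN3 share did. LPIN3 had a log2 fold change of 0.63 (SE 0.36, edgeR adjusted p = 0.569).

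**Figure D2:**
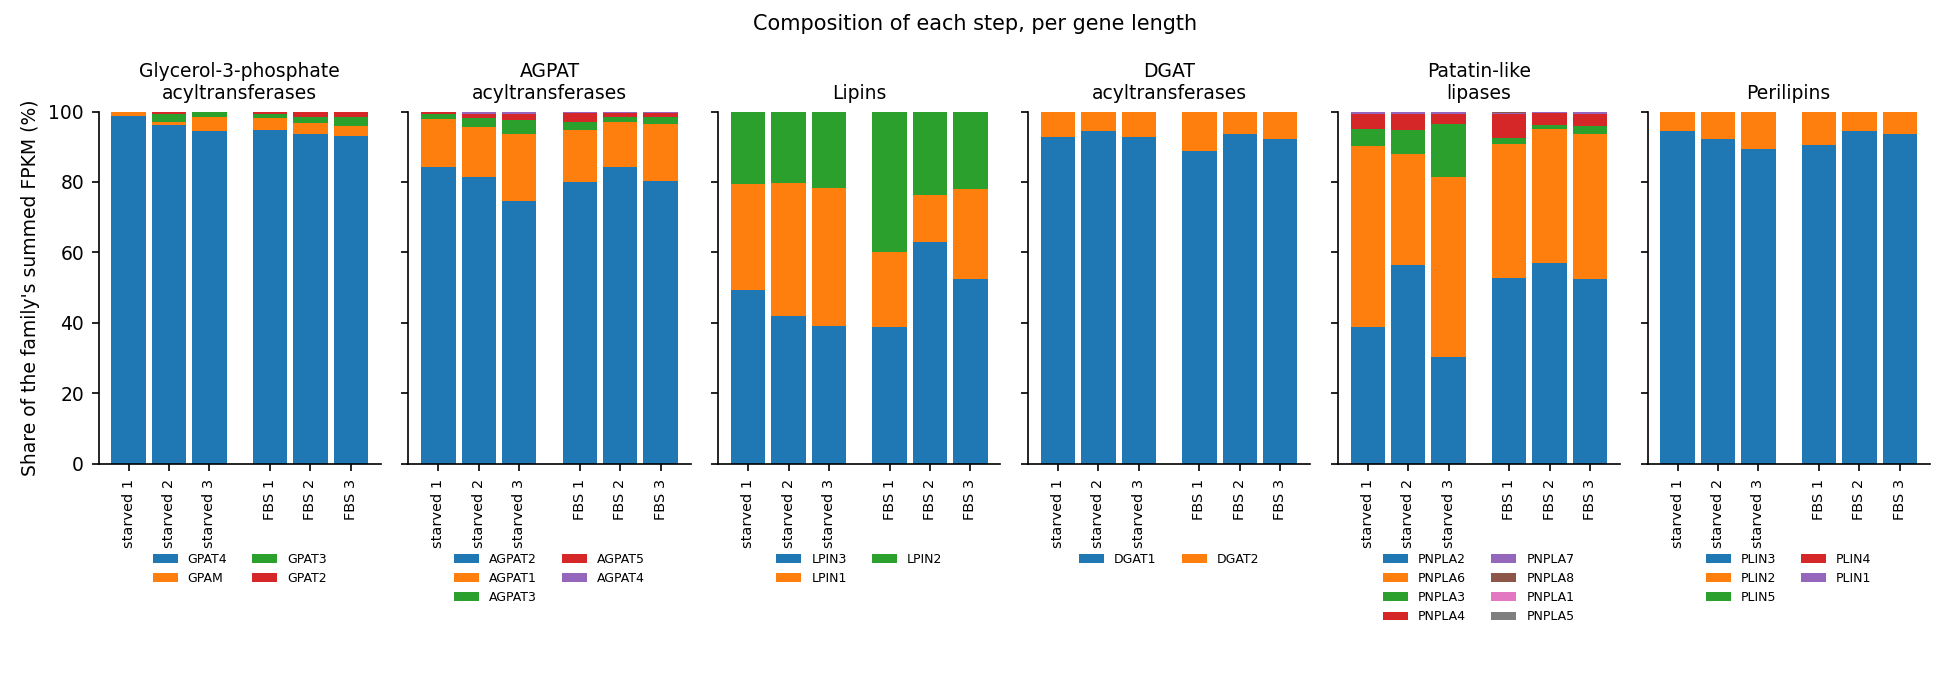
Share of each family's summed FPKM held by each gene (0 to 100%), per library, serum-starved libraries left of FBS libraries. GPAT4, AGPAT2, DGAT1 and PLIN3 each hold most of their family in all 6 libraries, the LPIN1 share is 30.0% to 39.0% in serum-starved against 13.3% to 25.5% in FBS libraries, and PNPLA3 takes 4.70% to 15% of the patatin-like lipases in serum-starved against 1.30% to 2.39% in FBS libraries.

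DGAT1 and DGAT2 encode unrelated enzymes that catalyse the final acylation of diacylglycerol. DGAT1 (ENSG00000185000) lies on chromosome 8 from 144314584 to 144326910, minus strand, and DGAT2 (ENSG00000062282) on chromosome 11 from 75759512 to 75801535, plus strand. DGAT1 had 162, 107 and 84.6 CPM in serum-starved libraries, and 76.3, 124 and 112 CPM in FBS libraries. The highest value was in serum-starved library 1 and the lowest in FBS library 1, and the groups overlapped, since serum-starved libraries 2 and 3 lay below FBS libraries 2 and 3. The means were 118 ± 39.8 CPM in serum-starved and 104 ± 24.7 CPM in FBS cells (SD, n = 3 each), with a log2 fold change of 0.18 (SE 0.32, 95% interval -0.48 to 0.85, edgeR adjusted p = 0.890). Once the library trend was removed, the 3 serum-starved libraries were at 113, 100 and 107 CPM and the 3 FBS libraries at 102, 115 and 110 CPM. The spread fell to an SD of 6.34 CPM in serum-starved and 6.66 CPM in FBS cells, and the log2 fold change became -0.03 with an interval of -0.39 to 0.33. DGAT1 shares 139 exon bases with HSF1 on the other strand, and HSF1 had 481 ± 162 CPM in serum-starved and 456 ± 84.6 CPM in FBS cells (SD, n = 3 each; log2 fold change 0.08, edgeR adjusted p = 0.957).

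DGAT2 had 23.9, 12.3 and 12.4 CPM in serum-starved libraries, and 18.2, 16.5 and 18.5 CPM in FBS libraries. Serum-starved library 1 was the highest of all 6 and libraries 2 and 3 the lowest, while the FBS libraries lay close together, at a coefficient of variation of 6.04%. The log2 fold change was -0.14 (SE 0.35, 95% interval -0.87 to 0.60, edgeR adjusted p = 0.929), and -0.48 with the GC and length trend removed (95% interval -1.04 to 0.08, edgeR adjusted p = 0.375). DGAT1 held 92.9%, 94.3% and 92.9% of the summed FPKM of the pair in serum-starved libraries, against 88.9%, 93.5% and 92.1% in FBS libraries. The DGAT2 to DGAT1 ratio of 0.0601 to 0.0771 in serum-starved cells overlapped with 0.0699 to 0.125 in FBS cells (two-sided exact permutation p = 0.3, adjusted p = 0.5 over 5 pairs).

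PNPLA2 encodes ATGL, which carries out the first step of triglyceride breakdown (ENSG00000177666, chromosome 11 from 818902 to 825573, plus strand). It had 212, 194 and 82.9 CPM in serum-starved libraries, and 129, 194 and 191 CPM in FBS libraries. Serum-starved library 3 was the lowest of all 6 and the other two lay at or above the FBS libraries. The means were 163 ± 69.8 CPM in serum-starved and 171 ± 36.5 CPM in FBS cells (SD, n = 3 each), with a log2 fold change of -0.07 (SE 0.35, 95% interval -0.80 to 0.66, edgeR adjusted p = 0.963). Removal of the library trend gave -0.31 (95% interval -0.73 to 0.12, edgeR adjusted p = 0.466).

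PNPLA3 is the close paralog of PNPLA2, a lipid droplet protein whose common coding variant is associated with fatty liver disease. PNPLA3 had 21.5, 19.9 and 34.6 CPM in serum-starved libraries, and 3.15, 3.69 and 7.34 CPM in FBS libraries. The lowest serum-starved library was above the highest FBS library, and library 3 was the highest in both groups. The means were 25.3 ± 8.09 CPM in serum-starved and 4.73 ± 2.28 CPM in FBS cells (SD, n = 3 each), from 316, 362 and 786 counts in serum-starved and 62, 62 and 113 counts in FBS libraries. PNPLA3 rose 5.37-fold (95% interval 2.96 to 9.74, log2 fold change 2.43, SE 0.41, edgeR adjusted p = 0.0121). It had the highest fold change of the 10 genes and ranked 16th of 13772 genes by p.

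The PNPLA3 call was lost without FBS library 1 (log2 fold change 2.19, edgeR adjusted p = 0.277) or FBS library 2 (2.29, edgeR adjusted p = 0.0871), and held in the other 4 fits that left out 1 library. With the GC and length trend removed the log2 fold change was again 2.43 (SE 0.39, edgeR adjusted p = 0.00956), at 17.1, 18.5 and 42.2 CPM in serum-starved libraries and 3.73, 3.54 and 7.19 CPM in FBS libraries. The PNPLA3 gene (ENSG00000100344) lies on chromosome 22 from 43923739 to 43964488, plus strand, and shares 148 of its 3232 exon bases with SAMM50 on the same strand. SAMM50, a mitochondrial outer membrane assembly protein, had 77.6 ± 5.74 CPM in serum-starved and 103 ± 8.98 CPM in FBS cells (SD, n = 3 each), on the other side of 0 (log2 fold change -0.41, SE 0.27, edgeR adjusted p = 0.630).

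Both lipase paralogs were also compared within libraries. The PNPLA3 to PNPLA2 ratio of counts per exon length was 0.121, 0.122 and 0.497 in serum-starved cells, against 0.0292, 0.0228 and 0.0459 in FBS cells. The ratio was higher in every serum-starved library than in any FBS library, and 6.20-fold higher on average of the logs, at the smallest p the exact permutation test allows (two-sided p = 0.1, adjusted p = 0.25 over 5 pairs). Without serum-starved library 3 the difference of the log2 ratios was 1.96, against 2.63 with all libraries. PNPLA2 was the more abundant of the pair in all 6 libraries. Among the 8 patatin-like genes PNPLA2 held 39.0%, 56.5% and 30.2% of the summed FPKM in serum-starved libraries, against 52.8%, 57.1% and 52.3% in FBS libraries, with most of the rest from PNPLA6, a lysophospholipase.

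PLIN2 and PLIN3 encode the perilipins found on droplets in most cell types, whereas PLIN1 is the adipocyte form. PLIN2 (ENSG00000147872) lies on chromosome 9 from 19108375 to 19149290 and PLIN3 (ENSG00000105355) on chromosome 19 from 4838341 to 4867768, both on the minus strand. PLIN2 had 45.7, 44.5 and 50.4 CPM in serum-starved libraries, and 44.6, 40.7 and 46.5 CPM in FBS libraries. The values overlapped and varied little, with a coefficient of variation of 6.67% in serum-starved and 6.78% in FBS cells. The means were 46.9 ± 3.13 CPM in serum-starved and 43.9 ± 2.98 CPM in FBS cells (SD, n = 3 each), and the log2 fold change was 0.09 (SE 0.27, 95% interval -0.48 to 0.66, edgeR adjusted p = 0.937).

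PLIN3 had 431, 306 and 238 CPM in serum-starved libraries, and 237, 402 and 387 CPM in FBS libraries. Serum-starved library 1 was the highest, and serum-starved library 3 and FBS library 1 were the lowest and nearly equal. The log2 fold change was -0.07 (SE 0.33, 95% interval -0.76 to 0.61, edgeR adjusted p = 0.960), and -0.15 with the GC and length trend removed (95% interval -0.53 to 0.23). PLIN3 held 94.4%, 92.3% and 89.3% of the summed FPKM of the 5 perilipins in serum-starved libraries, against 90.4%, 94.6% and 93.7% in FBS libraries, and PLIN2 held nearly all the rest. The PLIN2 to PLIN3 ratio (two-sided exact permutation p = 0.7, adjusted p = 0.7 over 5 pairs) and the GPAM to AGPAT2 ratio (p = 0.6, adjusted p = 0.7, same exact permutation test) overlapped between the groups.

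**Figure D3:**
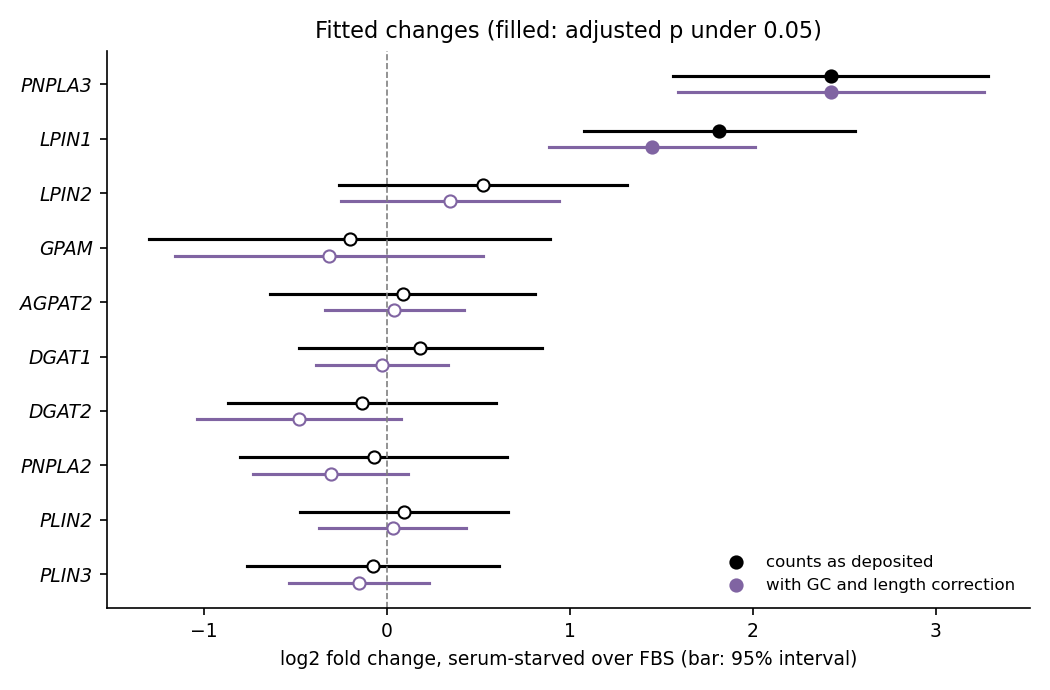
Log2 fold change of serum-starved over FBS cells for each gene with its 95% interval, from the counts as deposited (black) and with the GC and length trend removed (purple); filled points have an edgeR adjusted p below 0.05. PNPLA3 (2.43) and LPIN1 (1.82, and 1.45 with the trend removed) stand clear of 0, and the intervals of the other 8 genes include 0 in both fits.

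**Figure D4:**
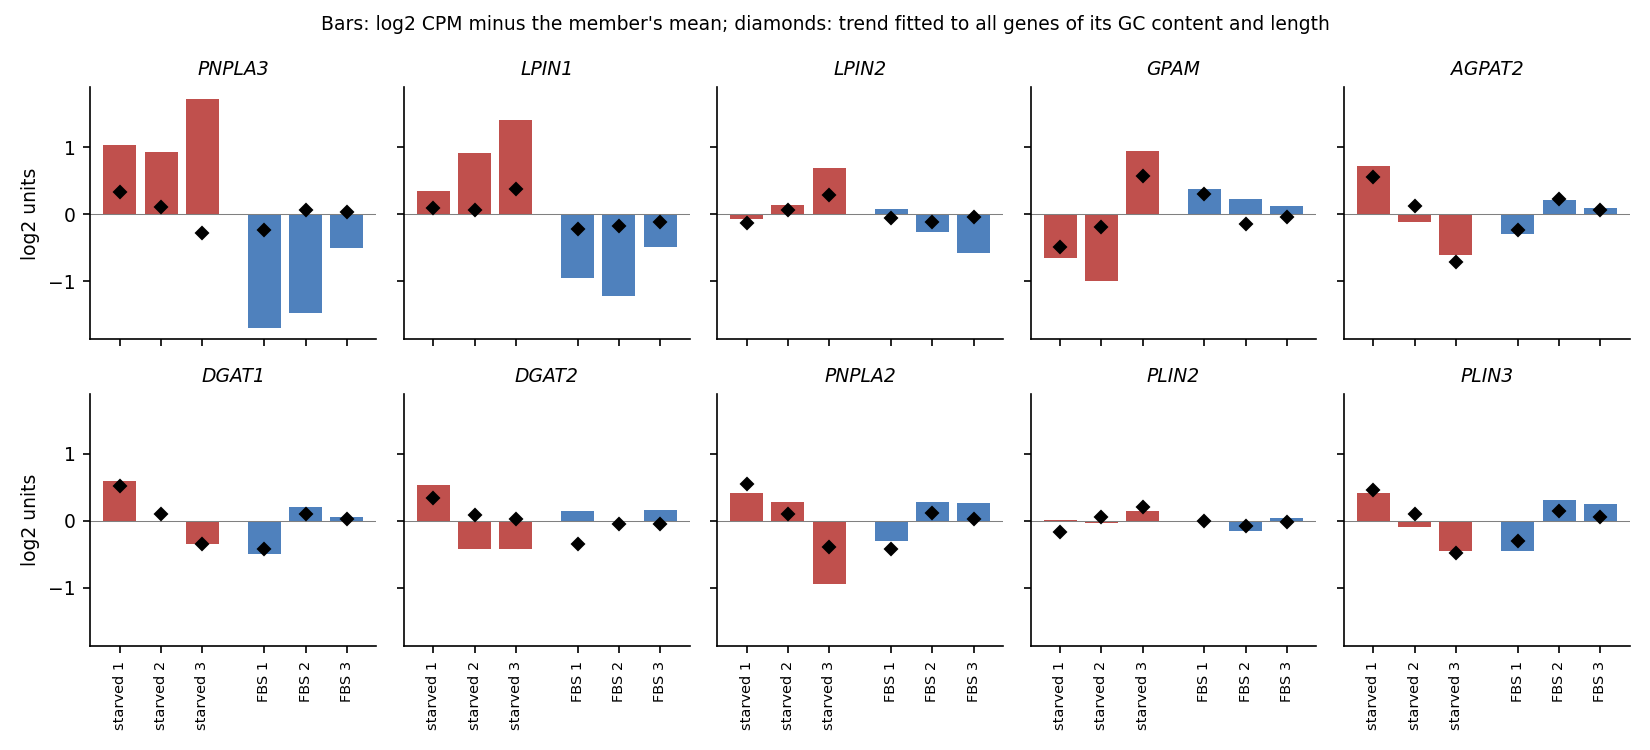
Deviation of each gene from its own mean over the 6 libraries, in log2 units (bars, serum-starved in red left of FBS in blue), with the trend fitted for genes of its GC content and length (diamonds). For AGPAT2, DGAT1 and PLIN3 the bars follow the diamonds closely, and for PNPLA3 and LPIN1 the bars run well past them.

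Once the trend was removed the SD was smaller in both groups for AGPAT2, DGAT1, PNPLA2 and PLIN3, and in 1 group only for the other 6 genes. For PNPLA2 it was then 36.4 CPM in serum-starved and 7.06 CPM in FBS cells, and for PLIN3 23.2 CPM in serum-starved and 45.8 CPM in FBS cells. It was larger in serum-starved cells for PNPLA3, at 14.1 against 8.09 CPM before removal, and for PLIN2, at 4.82 against 3.13 CPM. It was larger in FBS cells for DGAT2, at 3.13 against 1.07 CPM, and slightly so for LPIN1, LPIN2 and GPAM. Serum-starved library 1, for example, lay 0.72 log2 units above the AGPAT2 mean where the trend was 0.55, and serum-starved library 3 lay -0.61 units from it where the trend was -0.71. For PNPLA3 in serum-starved library 3 the deviation was 1.72 log2 units where the trend was -0.29.

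For PNPLA3 and LPIN1, the genes with the most similar profiles over the 6 libraries were sought among 9240 tested genes averaging at least 5 CPM, by the mean absolute difference of log2 CPM after centring each gene. The nearest to PNPLA3 were SCD, encoding stearoyl-CoA desaturase (0.20 log2 units), INSIG1, an endoplasmic reticulum membrane protein (0.23), FASN, fatty acid synthase (0.29) and TMEM97 (0.30). LPIN1 was 8th in that order, at 0.34. SCD had 1202, 1670 and 2095 CPM in serum-starved libraries, and 141, 202 and 436 CPM in FBS libraries. In SCD, as in PNPLA3, library 3 was the highest of both groups, a likeness on which SCD was picked.

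The nearest to LPIN1 were ACAT2, a cytosolic acetoacetyl-CoA thiolase (0.10 log2 units), SQLE, encoding squalene epoxidase (0.13), TMEM97 (0.16) and SLC1A4, a neutral amino acid transporter (0.17). PNPLA3 was 30th, at 0.34. ACAT2 had 276, 348 and 463 CPM in serum-starved libraries, and 90.2, 84.9 and 127 CPM in FBS libraries, which is the same order of libraries as LPIN1. Of the other 8 members LPIN2 was the closest, at 0.99 from PNPLA3 (rank 1337 of 9240) and 0.66 from LPIN1 (rank 1050). These distances are descriptions over 6 libraries that share their depth and GC trends. They use the same libraries as the test and add no separate evidence. The near genes were picked by profile, so a shared order of libraries follows largely from the choice.

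**Figure D5:**
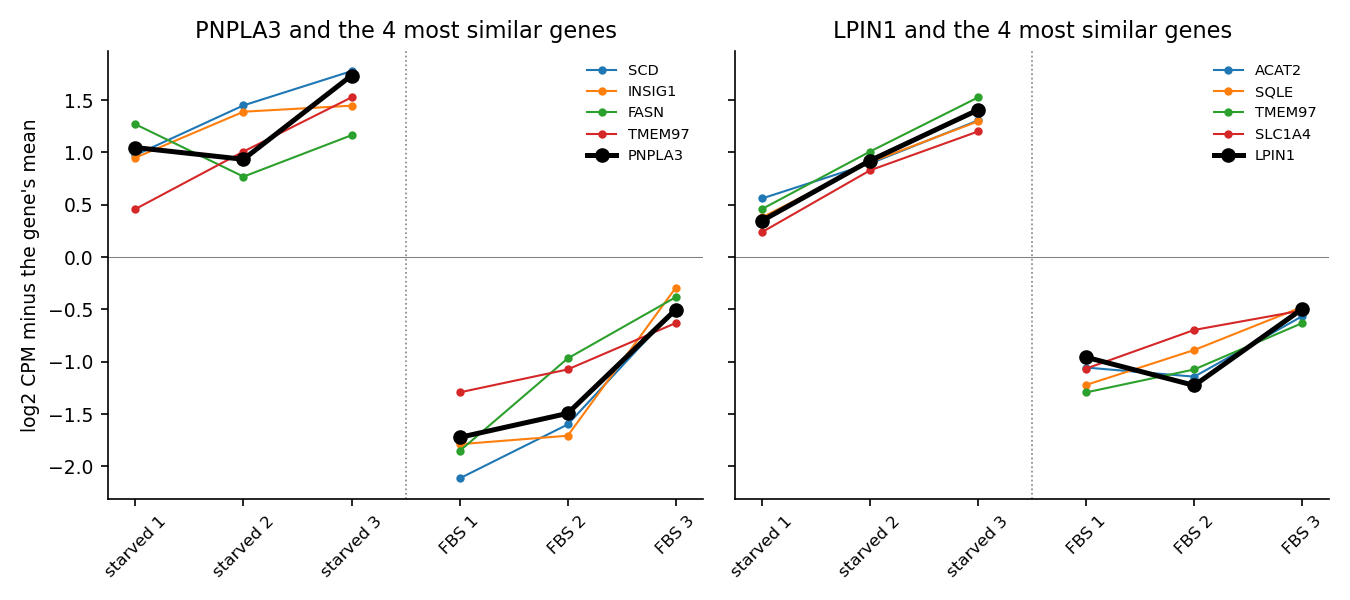
Log2 CPM less the gene's own mean in each library for PNPLA3 (left, black) and LPIN1 (right, black) with the 4 most similar genes each, serum-starved libraries left of FBS libraries; lines join the libraries of a group only to guide the eye. FBS library 3 is the highest FBS library for PNPLA3, LPIN1, SCD, INSIG1, FASN, TMEM97, ACAT2, SQLE and SLC1A4. The similar genes were picked by profile over these libraries, so this shared order follows largely from the choice.

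Around the 10 genes, 5 lists of pathway neighbours held 78 genes, of which 61 were tested. None of the 61 was called (edgeR, adjusted over all genes tested), with 34 above and 27 below 0, and the other 17 were too low to test. Without overlap between groups, 12 of the 61 were higher in serum-starved cells and 3 were lower, beside 10% and 7.65% of all genes tested. All values of the list genes are from the counts as deposited, without removal of the GC and length trend. How far that trend enters their fold changes and medians was not tested.

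Of 17 other acyltransferases and lipins, 13 were tested, 5 above and 8 below 0, with a median log2 fold change of -0.19. The most abundant after GPAT4 were AGPAT1, at 105 ± 30.1 CPM in serum-starved and 95.7 ± 17.2 CPM in FBS cells, and CTDNEP1, a phosphatase that activates lipins, at 85.1 ± 30.1 CPM in serum-starved and 99.96 ± 17.7 CPM in FBS cells (SD, n = 3 each). Of 19 other droplet proteins, 12 were tested, 5 above and 7 below 0, with a median of -0.12. AUP1, a droplet-associated ubiquitin ligase cofactor, was the most abundant, at 152 ± 44.6 CPM in serum-starved and 182 ± 29 CPM in FBS cells (SD, n = 3 each), followed by FAF2 and FITM2, with log2 fold changes of -0.07 and 0.06. PLIN1 and PLIN4 were too low to test, and PLIN5 averaged 0.845 CPM in serum-starved and 0.545 CPM in FBS cells.

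Of 14 other lipases and cofactors, 12 were tested, 7 above and 5 below 0, with a median log2 fold change of 0.18. The most abundant, PNPLA6, had 328 ± 169 CPM in serum-starved and 232 ± 53.96 CPM in FBS cells (SD, n = 3 each; log2 fold change 0.50, edgeR adjusted p = 0.677). MGLL, the monoacylglycerol lipase that ends triglyceride breakdown, had 303 ± 12.9 CPM in serum-starved and 250 ± 40.4 CPM in FBS cells (SD, n = 3 each; log2 fold change 0.28, edgeR adjusted p = 0.792). LIPA, the lysosomal acid lipase, followed, with a log2 fold change of 0.61 (SE 0.34, edgeR adjusted p = 0.559). LIPE, the hormone-sensitive lipase, and the ATGL activator ABHD5 had log2 fold changes of 0.16 and 0.25, and the ATGL inhibitor G0S2 one of -0.37, with edgeR adjusted p-values of 0.908, 0.874 and 0.897. These 3 genes were named for their roles after their values had been seen. Of 17 genes of the phospholipid branch, which draws on the same phosphatidate and diacylglycerol, 14 were tested, 10 above and 4 below 0, with a median of 0.13. The most abundant, DGKZ, a diacylglycerol kinase, and PEMT, a phosphatidylethanolamine methyltransferase, had overlapping groups and log2 fold changes of 0.27 and 0.03 (edgeR adjusted p = 0.831 and 0.983). PCYT2, the regulatory enzyme of phosphatidylethanolamine synthesis, had 138 ± 52.0 CPM in serum-starved and 69.1 ± 15.7 CPM in FBS cells (SD, n = 3 each), without overlap (log2 fold change 1.00, SE 0.32, edgeR adjusted p = 0.289).

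Of 11 transcription factors of lipid genes, 10 were tested, 7 above and 3 below 0, with a median log2 fold change of 0.70 against -0.02 over all genes tested. SREBF2, which encodes the factor that drives sterol synthesis genes, had 587, 430 and 473 CPM in serum-starved libraries, and 190, 274 and 326 CPM in FBS libraries. Its groups did not overlap, but the test was not passed (log2 fold change 0.91, SE 0.31, 95% interval 0.26 to 1.57, edgeR adjusted p = 0.315). SREBF1, which encodes the factor that drives fatty acid synthesis genes, had 305, 236 and 170 CPM in serum-starved libraries, and 91.0, 163 and 197 CPM in FBS libraries, with overlap (log2 fold change 0.66, SE 0.34, edgeR adjusted p = 0.520). MLXIP, a glucose-responsive factor, had 200 ± 36.2 CPM in serum-starved and 97.9 ± 22.9 CPM in FBS cells (SD, n = 3 each), without overlap (log2 fold change 1.03, SE 0.30, edgeR adjusted p = 0.256).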

How the data were processed

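RNA from 3 serum-starved and 3 FBS libraries of Ovcar8 cells was sequenced on a NovaSeq instrument after NEBNext library preparation, per the labels' protocols. The authors deposited raw counts per gene and FPKM values. STAR 2.6.1, DESeq2 2 and GRCh38 are named in the submitters' processing notes; no source used here gives the counting tool or its strand setting, so reads of overlapping genes cannot be told apart. The deposited FPKM values equal counts per gene length scaled by DESeq2 size factors. All 58735 gene IDs and positions match GENCODE 29, which gave GC content and exon overlaps.

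Counts were tested with edgeR 4.0.16 in R 4.3.3 (filterByExpr with a minimum count of 10 and total of 15, TMM, robust quasi-likelihood fit on 6 libraries without covariates), with Benjamini-Hochberg adjustment over 13772 genes, and CPM are TMM-normalized. SE is the absolute log2 fold change over the square root of F. The biological coefficient of variation was 36.3%. Depth was 16379416 to 19558484 counts per library, and intervals cover the spread between libraries. Ratios within libraries, with 0.5 added to each count, were compared by exact permutation. The GC and length trend was a natural spline with 5 degrees of freedom per library, entered as an offset. Alternatives were DESeq2 1.42.0, limma 3.58.1 on log2(FPKM + pseudocount), other scaling and filters, a replicate block and leaving out each library. Fits were also run on simulated counts drawn without library trends on GC content and length. Those runs do not show how the calls fare under such trends.

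The text names all 10 members, every called gene of the lists, otherwise up to 3 genes of a list by mean CPM, and the 4 nearest profiles of each called member (the rule gave 5, and the fifth is not reported here); other list genes are named after their values were seen. The members and lists were chosen with earlier results of these data known.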

Additional observations from a re-analysis of the deposited data

How the results depend on the processing

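The number of genes called over all genes was 39, against 38 with RLE size factors and 43 with a replicate block. It was 127 without a low-count filter, 154 in DESeq2, 125 with the GC and length correction and 97 with that correction and the replicate block. On FPKM, limma called 22 genes at a pseudocount of 1, 19 at 0.1 and 0 without a filter (1534 at an unadjusted p under 0.05), and leaving out 1 library gave 4 to 257. The members called higher were 2 under each count setting, 1 in both filtered limma fits (PNPLA3), 0 in limma without a filter, and 0 to 2 when 1 library was left out; 0 members were called lower in any setting. LPIN1 had limma adjusted p-values of 0.183, 0.155 and 0.663, and PNPLA3 one of 0.423 without a filter. Values that changed sign were all of genes or ratios that passed no test. AGPAT2 was at -0.0134 with the replicate block and -0.0041, -0.0047 and -0.0041 in the limma fits, and DGAT1 at -0.0264 with the GC and length correction and -0.0263 with the block added; the cause was not tested. Leaving out 1 library gave -0.2974 to 0.2412 for PNPLA2, -1.0988 to 0.1244 for GPAM, -0.3487 to 0.3399 for AGPAT2, -0.1015 to 0.3689 for DGAT1, -0.5073 to 0.0225 for DGAT2 and -0.317 to 0.1039 for PLIN3. The ratios ran from 1.9552 (without serum-starved library 3) to 2.9748 for PNPLA3 over PNPLA2, from -1.3882 to 0.0949 for GPAM over AGPAT2 and from -0.0857 to 0.4285 for PLIN2 over PLIN3. Deviations of same-numbered libraries correlated at -0.257, 0.0967 and -0.0818 for replicates 1, 2 and 3. These deviations include the library trends on GC content and length, so they do not settle whether replicate numbers pair the libraries. The filtered limma fits hold no value for GPAM, whose mean FPKM was under 0.5. GPAM had 33 to 165 counts per library.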
